A study of Mus musculus with 12 samples.

Results

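The replication-dependent histone genes encode the linker histone H1 and the core histones H2A, H2B, H3 and H4 that package newly copied DNA. Members were all Ensembl genes in the count tables whose protein-coding mouse symbol began with Hist1h, Hist2h, Hist3h or Hist4h, and 67 of the 56748 genes met this rule. They comprised 6 H1, 18 H2A, 18 H2B, 12 H3 and 13 H4 genes, of which 54 lie in the Hist1 cluster, 10 in Hist2, 2 in Hist3 and 1 in Hist4. The rule itself uses no measured value, though it was chosen with earlier results of these data known. A further 3 symbols of the family were left out as pseudogenes.

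Most of these genes have no intron, and their mRNAs end in a short stem-loop in place of a poly(A) tail. The stem-loop binding protein (Slbp) holds this hairpin during processing, export and translation, while NPAT, a substrate of cyclin E and CDK2, switches the genes on as cells enter S phase. When replication ends the hairpin guides degradation of the mRNA, so the level of these mRNAs in a population is closely tied to DNA synthesis. Some members also give rise to polyadenylated transcripts in cells that have stopped dividing.

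RNA-seq was available for 12 libraries of sorted murine bone marrow cells, 6 labelled CTRL (BCR::ABL1−) and 6 labelled CML 2wk (BCR::ABL1+). In both groups the cells were CD45.2+Lin−Sca+Kit+ (LSK, stem and progenitor cells) and came from SCLtTA/BCR-ABL double transgenic (DTG) marrow, in which the tetracycline transactivator is driven from the Scl (Tal1) stem cell enhancer and withdrawal of tetracycline (TET) induces human BCR::ABL1. All recipients were B6.SJL (CD45.1) mice of 8 to 12 weeks that had received 2 doses of 4.25 Gy and a pool of frozen DTG marrow from donors of both sexes, so replicates are recipients of pooled donor cells. All mice had TET for 2 weeks, after which it was stopped for 2 weeks (CML 2wk) or continued (CTRL). The labels list every CTRL sample as male and every CML 2wk sample as female, so labelled sex and BCR::ABL1 cannot be told apart. Whether the label describes the recipients or the donor cells, pooled from both sexes, is not given in the sources used here. The labels name no batch. The library numbers in the files' names form a series of their own for replicates 1 to 5 of each group and another for replicate 6 of both groups, and what these series stand for is not given.

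Totals were 22804754 to 41832868 counts per CTRL library and 16150817 to 25070105 per CML 2wk library. Kit was measured at 680 to 799 CPM (counts scaled to a common library total, with TMM factors) in CTRL and 322 to 519 in CML 2wk, and Ly6a (Sca-1) at 27.2 to 38.3 and 31.3 to 73.6. Marker lists of other lineages moved with the groups: the summed level of 7 mast cell and basophil genes was 66.2 to 135 CPM in CTRL and 394 to 2297 in CML 2wk, with 6 of the 7 called higher, while all 5 megakaryocyte genes, 7 of 8 erythroid genes and 8 of 9 stem and progenitor genes were called lower. Of 8 neutrophil genes 4 were called higher and 3 lower, of 6 monocyte genes 1 each way, and of 6 B cell genes 2 lower. Over all genes tested, 30.6% were called higher and 29.0% lower. Of 4 tested T and NK cell genes 2 were called higher and 0 lower (median −0.08), and the summed level of the list was 69.5 to 94.6 CPM in CTRL and 85.6 to 189 CPM in CML 2wk, highest in replicate 6, while the T cell gene Cd3e was at most at 1.02 CPM. CML 2wk replicates 2 and 4 stood apart in the summed level of 7 stromal genes, at 5222 and 628 CPM, against 73.3 to 138 in the other 10 libraries. CML 2wk replicate 6 stood apart in the histone genes themselves, as described below. The part of these cells and libraries in the histone values was not tested beyond leaving the libraries out. In bulk RNA, fewer cells of a type and less RNA per cell cannot be told apart, and this holds for every level below.

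The hairpin was readable in the annotated transcripts of 46 members. A gene is shown for each combination of stem and 4-base loop, since the stems set the H4 genes apart and the loops are set against the calls below. The capitals mark the loop, and the letters are those of the DNA sense strand in the GENCODE M21 mouse transcripts.
Hist1h1c: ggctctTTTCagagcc
Hist1h2bb: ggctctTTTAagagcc
Hist2h2ac: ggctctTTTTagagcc
Hist1h3g: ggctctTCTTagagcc
Hist1h4d: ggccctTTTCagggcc
Hist2h4: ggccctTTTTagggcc
Hist1h4a: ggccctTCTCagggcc
Hist1h4j: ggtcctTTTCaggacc

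The first stem was carried by 34 members, namely 4 H1, 11 H2A, 10 H2B and 9 H3 genes. The 12 readable H4 hairpins had the other stems, 10 with the second and 2 with the third. The loop TTTC was the most frequent with 35 members, followed by TTTA with 6, TTTT with 3 and TCTC and TCTT with 1 each. Hist1h1a, Hist1h1b and Hist2h2be were among the 21 members with no match, so nothing is said of their hairpin.

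The types also differ upstream of the start site. The 140 bases before the annotated start are given for the 5 H1 genes tested, because 3 of them were called higher and 2 were not, and for 3 H4 genes and Hist2h2ac. Sequences are from RefSeq on build GRCm38.p6, each written on the strand of its gene. Capitals mark matches, on either strand, to AAACACA (the AC box of H1 genes), CCAAT (the box bound by NF-Y), TATAAA (the TATA box), GGTCCG (part of the H4 element that binds HINFP) and ATTTGCAT (the octamer bound by OCT1).
Hist1h1a, chr13:23763528-23763667 (+): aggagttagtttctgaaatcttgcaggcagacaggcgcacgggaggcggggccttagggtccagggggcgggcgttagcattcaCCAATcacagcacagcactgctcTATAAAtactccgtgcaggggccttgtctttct
Hist1h1b, chr13:21780626-21780765 (−): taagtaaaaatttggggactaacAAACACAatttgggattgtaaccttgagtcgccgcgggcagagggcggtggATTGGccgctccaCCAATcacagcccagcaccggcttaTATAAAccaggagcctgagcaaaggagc
Hist1h1d, chr13:23554892-23555031 (+): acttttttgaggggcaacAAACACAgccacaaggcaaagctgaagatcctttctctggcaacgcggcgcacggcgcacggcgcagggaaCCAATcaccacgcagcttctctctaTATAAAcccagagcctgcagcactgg
Hist1h1c, chr13:23738667-23738806 (+): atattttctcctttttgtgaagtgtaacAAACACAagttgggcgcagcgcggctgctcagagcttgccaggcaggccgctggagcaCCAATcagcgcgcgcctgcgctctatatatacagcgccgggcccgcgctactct
Hist1h1e, chr13:23622559-23622698 (−): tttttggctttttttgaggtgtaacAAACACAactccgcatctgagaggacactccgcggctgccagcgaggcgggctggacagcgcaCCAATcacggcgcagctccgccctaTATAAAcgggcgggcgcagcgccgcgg
Hist1h4a, chr13:23761250-23761389 (−): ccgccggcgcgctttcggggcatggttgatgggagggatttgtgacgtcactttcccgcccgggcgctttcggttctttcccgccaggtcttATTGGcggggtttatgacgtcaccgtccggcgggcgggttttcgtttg
Hist1h4d, chr13:23581428-23581567 (+): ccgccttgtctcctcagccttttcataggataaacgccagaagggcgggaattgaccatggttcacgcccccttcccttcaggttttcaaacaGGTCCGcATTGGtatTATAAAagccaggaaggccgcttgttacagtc
Hist4h4, chr6:136804432-136804571 (−): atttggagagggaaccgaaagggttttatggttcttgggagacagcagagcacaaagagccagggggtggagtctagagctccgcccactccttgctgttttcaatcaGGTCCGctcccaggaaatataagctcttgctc
Hist2h2ac, chr3:96220881-96221020 (−): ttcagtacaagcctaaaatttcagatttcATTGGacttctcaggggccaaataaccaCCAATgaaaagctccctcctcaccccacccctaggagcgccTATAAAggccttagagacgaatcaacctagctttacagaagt

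Of the 62 members with a promoter in the RefSeq table, AAACACA was found in 5 of 6 H1 promoters and 4 others, against 7.18% of all mouse promoter windows of 300 bases. The exception was Hist1h1a. GGTCCG was found in 11 of 12 H4 promoters (8.25% of all windows), the exception being Hist1h4a. The octamer was found in 7 of 16 H2B and 7 of 18 H2A promoters and in none of the H1, H3 or H4 promoters (1.74% of all windows). CCAAT occurred in 53 of the 62 members (37.4% of all windows) and TATAAA in 35 (13.6%). Such matches are descriptions and not binding sites.

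In CTRL cells the family took 0.788% to 1.07% of all counts. Of the 67 members, 29 had a mean of 100 CPM or more and 23 a mean between 10 and 100 CPM, and the 10 highest members held 50.9% of the summed level. Per kilobase of coding sequence the highest was Hist1h4d, an H4 gene, at 1793 CPM per kb in CTRL, followed by the linker histone gene Hist1h1c at 1212. The lowest of the genes tested was Hist2h3c2, an H3 gene, at 6.10 CPM per kb. H1 genes took 29.9% to 33.1% of the histone counts, H2B genes 22.1% to 23.8%, H4 genes 17.4% to 21.4%, H3 genes 17.6% to 19.3% and H2A genes 7.72% to 9.06%. The part of reads lost between near-identical genes in these shares was not tested.

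Of the members 12 could not be tested because they had too few counts, leaving 55. Hist2h2aa1, Hist2h2aa2, Hist2h2bb, Hist2h3b and Hist2h3c1 were at 0 counts in each of the 12 libraries. A count of 0 leaves room for 3 counts, or 0.0717 to 0.186 CPM depending on the library. For these 5 genes 100% of the 75-base words of their transcripts also occur in other genes, so a read from them could have been placed elsewhere or not counted. Hist1h2ao, Hist1h2ap, Hist1h2bq and Hist1h2br shared 87.6% to 96.1% of their words and had at most 11 counts in all. Hist1h2aa, Hist1h2ba and Hist1h1t, genes known from the testis, had 1, 4 and 146 counts in the 12 libraries. The 5 H1 genes tested shared a median of 1.5% of words with other genes, against 62.4% for the H2A genes, so the values of single H2A genes are the least certain. Exons of 24 members overlap another annotated gene, 21 of them one on the opposite strand, and the strand setting of the counting is not given in the sources used here.

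The question was which histone genes differ between BCR::ABL1+ and BCR::ABL1− LSK cells. Of the 55 genes tested, 10 were called higher and 4 lower in CML 2wk at an adjusted p below 0.05 (edgeR's quasi-likelihood test, Benjamini-Hochberg over 18438 genes), and 41 were not called. This is 25.5% of the members, against 59.5% of all genes tested, 30.6% being called higher and 29.0% lower. The median log2 fold change was 0.15 over the members and 0.07 over all genes. By type, 3 of 5 H1, 1 of 13 H2A, 0 of 14 H2B, 2 of 10 H3 and 4 of 13 H4 genes were called higher, and 1 gene each of H2A, H2B, H3 and H4 was called lower. Groups did not overlap for 4 members, Hist1h1a, Hist1h1b, Hist1h1d and Hist2h2be, against 37.7% of all genes.

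**Figure D1:**
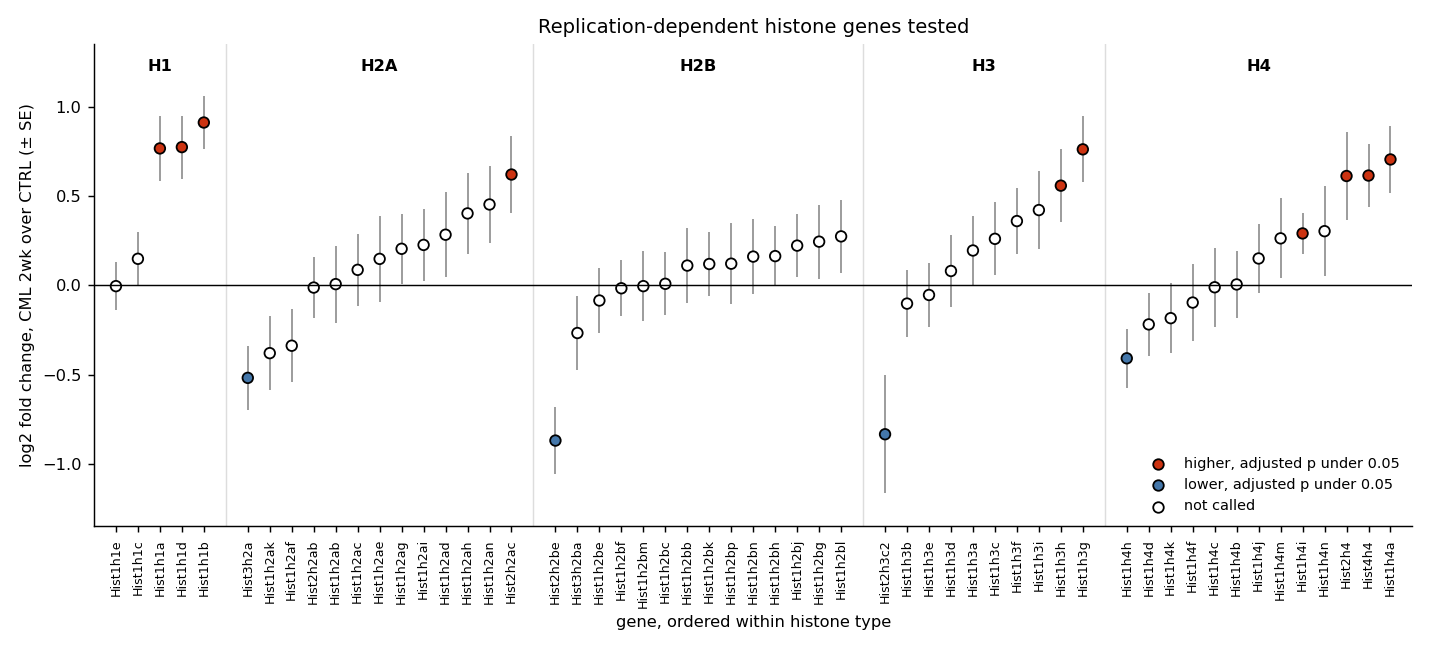
The log2 fold change of CML 2wk over CTRL (y axis) is plotted with its SE for each of the 55 histone genes tested (x axis), ordered within histone type, with red points called higher, blue points lower and open points not called. The 3 red H1 points lie between 0.77 and 0.91, while all H2B points but Hist2h2be lie between −0.27 and 0.27.

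These counts rest in part on one library. The summed histone level was 7819, 9100.4 and 11053 CPM (lowest, median and highest) in CTRL and 7685, 10224 and 18042 in CML 2wk. The groups overlapped, and their means were 9331 ± 1145 and 10960 ± 3787 CPM (SD, n = 6). CML 2wk replicate 6 gave the value of 18042, and it was the highest of all 12 libraries for 50 of the 55 members, whereas CTRL replicate 6 was the lowest CTRL library for 45. CML 2wk replicates 2 and 4, which carried the stromal genes, had the lowest sums of their group, at 7921 and 7685 CPM.

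Without CML 2wk replicate 6 the mean of the group was 9544 ± 1697 CPM (SD, n = 5). The median over the members was then −0.10, with 6 called higher and 9 lower, against 58.3% of all genes called, 29.4% higher and 28.9% lower. Without CML 2wk replicates 2 and 4, 22 members were called higher and 2 lower, against 64.0% of all genes called, 32.0% each way. The sign of the median thus changed with 1 library. Leaving out CTRL replicate 5 or CTRL replicate 6 also brought the number called higher to 6, and leaving out CTRL replicates 1, 2 or 3 or CML 2wk replicates 2, 3 or 5 one at a time brought the number called lower to 1 or 2.

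**Figure D2:**
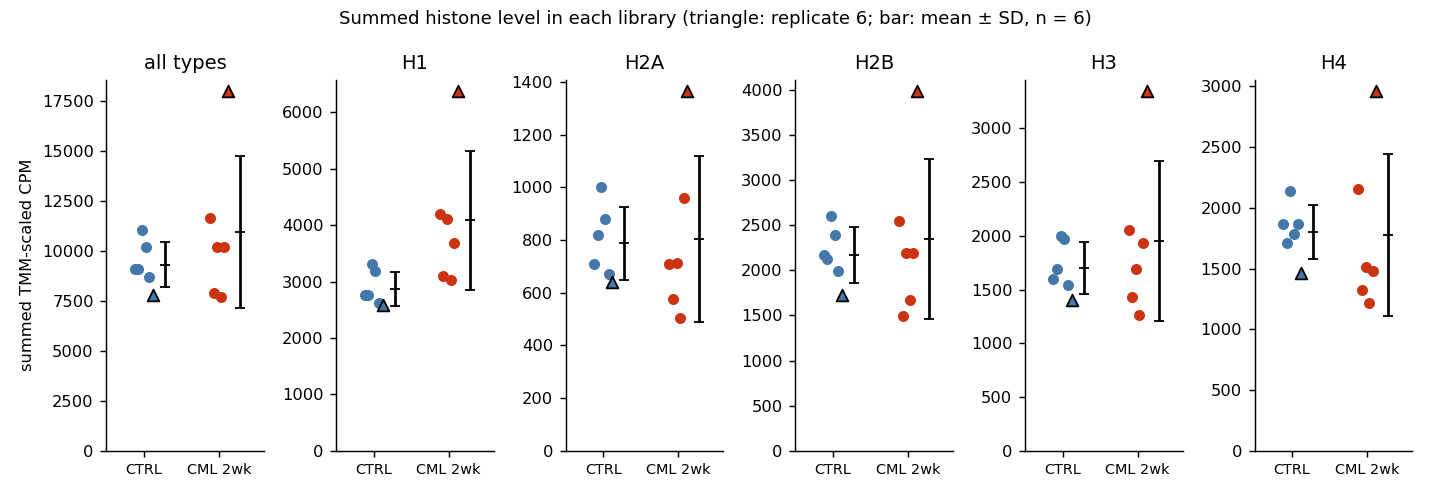
Each point is the summed TMM-scaled CPM (y axis) of all members or of 1 histone type in 1 library, with CTRL in blue, CML 2wk in red, triangles for replicate 6, and a bar for the mean ± SD (n = 6). The red triangle is the highest point in every panel, at 18042 CPM for all types, and the other 5 CML 2wk sums of all types lie between 7685 and 11667 CPM.

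Most histone genes are short, and calls varied with gene length across the transcriptome. Among the other protein-coding genes with under 1000 exonic bases, 49.1% were called higher and 12.2% lower, with a median log2 fold change of 0.50. Among those of 4000 bases or more, 20.8% were higher and 47.5% lower, with a median of −0.22. The histone genes tested had a median exonic length of 572 bases, and the 40 with under 1000 bases had a median of 0.18, with 17.5% called higher and 2.5% lower. Hist1h1d was the longest at 7425 bases, 4884 of them after the stem-loop. Of 17 members with over 300 bases after the stem-loop, 4 were called higher and 2 lower. Of 23 with at most 300, 3 were higher and 1 lower, beside 30.6% and 29.0% of all genes. The part of counts lying past the stem-loop was not tested. The part of length in the calls was not tested.

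**Figure D3:**
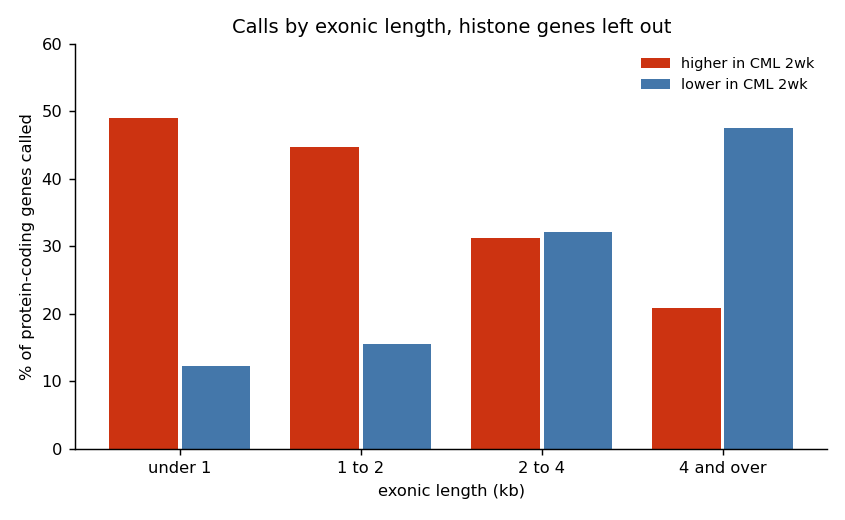
Bars give the percent of protein-coding genes other than the histone genes that were called higher (red) or lower (blue) in CML 2wk (y axis) in 4 bins of exonic length (x axis, kb). The share called higher falls from 49.1% under 1 kb to 20.8% at 4 kb and over, and the share called lower rises from 12.2% to 47.5%.

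H1 was the histone type with the largest median difference, 0.77 over its 5 tested genes, and 0.56 without CML 2wk replicate 6. H1 binds the DNA between nucleosomes and compacts chromatin. Hist1h1b (H1.5) was measured at 359, 400 and 492 CPM in CTRL (lowest, median and highest) and at 557, 753 and 1141 CPM in CML 2wk. Every CML 2wk library was above every CTRL library, and the log2 fold change was 0.91 (SE 0.15, edgeR adjusted p = 9.05e-05). Hist1h1d (H1.3) was at 555, 611 and 733 CPM in CTRL and 747, 1051 and 1773 CPM in CML 2wk, again without overlap, with a log2 fold change of 0.77 (SE 0.18, edgeR adjusted p = 0.00161). Hist1h1a (H1.1) was at 420, 435 and 530 CPM in CTRL and 534, 675 and 1255 CPM in CML 2wk, with no overlap and a log2 fold change of 0.77 (SE 0.18, edgeR adjusted p = 0.0023). Without CML 2wk replicate 6 the log2 fold changes were 0.76 for Hist1h1b, 0.57 for Hist1h1d and 0.56 for Hist1h1a, and all 3 were still called.

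The other H1 genes of these cells were not called. Hist1h1c (H1.2), the H1 gene with the highest level per coding kilobase in CTRL, was at 691, 748 and 877 CPM in CTRL and 617, 804 and 1340 CPM in CML 2wk. The groups overlapped, and the log2 fold change was 0.15 (SE 0.15, edgeR adjusted p = 0.406). Hist1h1e (H1.4) was at 498, 589 and 679 CPM in CTRL and 467, 549 and 880 CPM in CML 2wk, with a log2 fold change of −0.01 (SE 0.13, edgeR adjusted p = 0.978), and its exons overlap those of Hist1h2be on the same strand. The testis gene Hist1h1t reached at most 1.08 CPM in any library and could not be tested. In the promoters printed above, Hist1h1b, Hist1h1d, Hist1h1c and Hist1h1e all hold AAACACA followed by CCAAT, so these letters did not separate the genes called higher from those not called.

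The makeup of the histone counts was less variable between libraries than their sum. H1 genes took 29.9% to 33.1% of histone counts in CTRL and 35.4% to 40.2% in CML 2wk, and these ranges did not overlap. Hist1h1b alone rose from 4.46% ± 0.31 to 7.25% ± 0.79 (SD, n = 6 each) of histone counts, with CML 2wk replicate 6 at 6.32%, the lowest value of its group and above all CTRL libraries. The share of H2B genes was 22.1% to 23.8% in CTRL and 18.8% to 22.1% in CML 2wk, the ranges being adjacent at replicate 6 of the 2 groups. H4 genes had 17.4% to 21.4% and 14.4% to 18.5%, and H3 genes 17.6% to 19.3% and 16.4% to 18.8%. As these are shares of 1 total, a rise of 1 type lowers the others.

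With the summed histone counts used as library size, a setting chosen after seeing the data, 5 members were called higher and 7 lower, against 33.1% of all genes called, 12.9% higher and 20.2% lower. The median over all genes was −0.07 on this scale, against 0.07 with TMM factors, and that over the members −0.10. The 5 higher were Hist1h1a, Hist1h1b, Hist1h1d, Hist1h3g and Hist1h4a, and all were also called with TMM factors. Hist1h1b had a log2 fold change of 0.70 (edgeR adjusted p = 0.00172) on this scale, Hist1h1d 0.54 and Hist1h1a 0.52. Hist4h4, Hist2h4, Hist1h4i, Hist2h2ac, Hist1h3h and Hist3h2a lost their calls on this scale. The 7 lower were Hist2h2be, Hist2h3c2, Hist1h4h, Hist1h4d, Hist1h4k, Hist1h2ak and Hist1h2af.

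**Figure D4:**
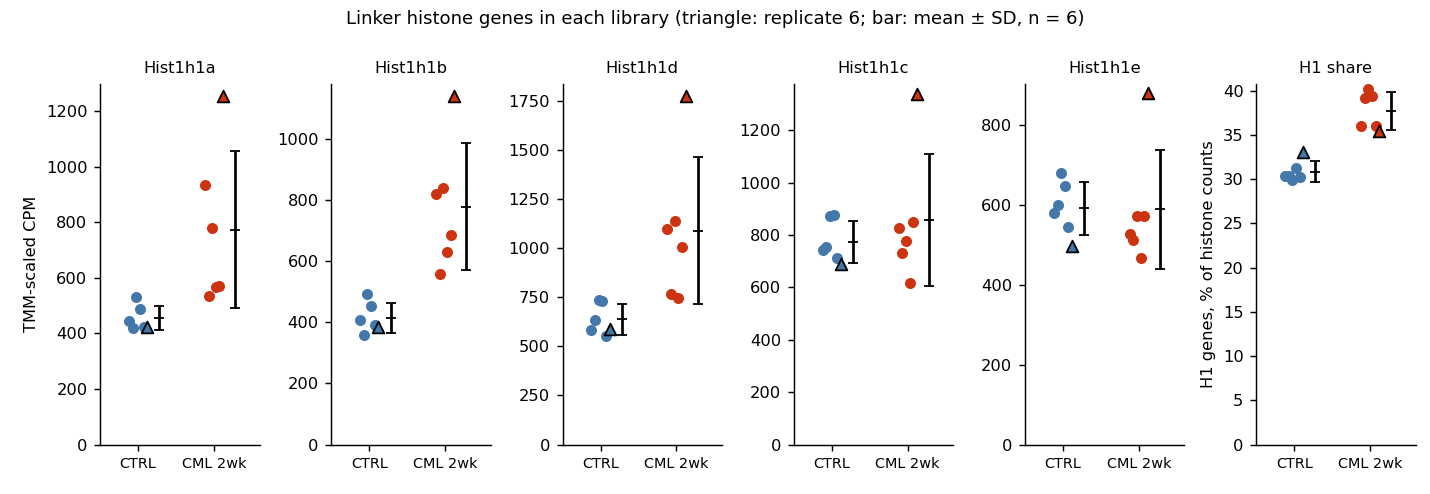
TMM-scaled CPM (y axis) of the 5 H1 genes tested is shown per library in the first 5 panels, and H1 genes as percent of histone counts in the last, with CTRL in blue, CML 2wk in red, triangles for replicate 6 and bars for the mean ± SD (n = 6). Groups are apart for Hist1h1a, Hist1h1b, Hist1h1d and the H1 share, at 29.9% to 33.1% against 35.4% to 40.2%, and overlap for Hist1h1c and Hist1h1e.

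H4 genes encode 1 protein from many copies, and they differed among themselves in both directions. Hist1h4a was at 73.7, 89.3 and 111 CPM in CTRL and 89.1, 134 and 232 CPM in CML 2wk. The ranges overlapped between 89.1 and 111 CPM, and the log2 fold change was 0.70 (SE 0.19, edgeR adjusted p = 0.0044). Hist4h4, the sole member of the Hist4 cluster, had a log2 fold change of 0.61 (SE 0.18, edgeR adjusted p = 0.00821), with CTRL libraries at 38.4, 55.7 and 59.99 CPM and CML 2wk libraries at 59.4, 69.0 and 119 CPM, so that 1 CTRL library lay just above the lowest CML 2wk library. Hist2h4 (0.61, SE 0.25) and Hist1h4i (0.29, SE 0.11) were also called higher, but neither call remained without CML 2wk replicate 6, where the edgeR adjusted p was 0.146 and 0.115.

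Other H4 genes lay lower in most CML 2wk libraries. Hist1h4d, which had the highest level per coding kilobase, was at 462, 564 and 654 CPM in CTRL and 355, 397 and 794 CPM in CML 2wk. The other 5 CML 2wk libraries were between 355 and 563 CPM with replicate 6 at 794, and the log2 fold change of −0.22 (SE 0.18) was not called (edgeR adjusted p = 0.294). Hist1h4h was at 211, 264 and 312 CPM in CTRL and 147, 174 and 313 CPM in CML 2wk, and was called lower with a log2 fold change of −0.41 (SE 0.165, edgeR adjusted p = 0.0442). Without CML 2wk replicate 6 both were called lower, at −0.43 for Hist1h4d (edgeR adjusted p = 0.00634) and −0.59 for Hist1h4h (edgeR adjusted p = 0.000991). The call of Hist1h4h was lost under 10 of 20 alternatives, which here and below leave out the scaling to histone counts.

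H3 genes also differed in both directions. Hist1h3g was at 51.4, 55.7 and 65.3 CPM in CTRL and 65.3, 86.8 and 158 CPM in CML 2wk, so the highest CTRL library and the lowest CML 2wk library met at one value. Its log2 fold change was 0.76 (SE 0.19, edgeR adjusted p = 0.00263), and it was called under all 20 alternatives. Hist1h3h had a log2 fold change of 0.56 (SE 0.20, edgeR adjusted p = 0.0286), but 93.5% of its transcript words occur in other genes and its call was lost without CML 2wk replicate 6 (edgeR adjusted p = 0.0797). Hist1h3e, the H3 gene with the highest level per coding kilobase, was at 315, 376 and 471 CPM in CTRL and 253, 341 and 623 CPM in CML 2wk, with a log2 fold change of −0.05 (SE 0.18) that was not called. Hist1h3f was at 229, 272 and 332 CPM and at 234, 325 and 600 CPM, with a log2 fold change of 0.36 (SE 0.18) that missed the threshold (edgeR adjusted p = 0.104). Hist2h3c2 was called lower at −0.83 (SE 0.33, edgeR adjusted p = 0.0406), yet its levels were 1.06 to 4.83 CPM in CTRL and 0.893 to 2.15 in CML 2wk and its call was lost under 12 of 20 alternatives.

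H2A and H2B genes mostly overlapped between the groups. Hist1h2bn, the H2B gene with the highest level per coding kilobase, was at 269, 331 and 394 CPM in CTRL and 239, 329 and 676 CPM in CML 2wk, with a log2 fold change of 0.16 (SE 0.21). Hist1h2bb was at 231, 304 and 394 CPM and at 195, 308 and 578 CPM, with a log2 fold change of 0.11 (SE 0.21). Medians of the groups were close for both, and the wider spread of CML 2wk came from replicate 6 at the top and replicate 2 or 4 at the bottom. Of the H2A genes, Hist1h2ab was at 138, 162 and 216 CPM in CTRL and 109, 141 and 299 CPM in CML 2wk (0.01, SE 0.22), and Hist1h2ak at 145, 177 and 217 CPM and 89.0, 115 and 241 CPM (−0.38, SE 0.21). Neither was called with all libraries, and without CML 2wk replicate 6 Hist1h2ak was called lower at −0.63 (edgeR adjusted p = 0.00222).

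Hist2h2be was the member with the largest fall. It encodes an H2B variant known from olfactory neurons and made outside S phase. It was at 11.8, 15.3 and 17.1 CPM in CTRL and 5.62, 7.12 and 11.7 CPM in CML 2wk, without overlap, and fell by 0.87 on the log2 scale (SE 0.19, edgeR adjusted p = 0.00116). CML 2wk replicate 6, the highest library for most members, was here the lowest of all, and the call was kept under all 20 alternatives. Hist3h2a, an H2A gene of the Hist3 cluster, was at 10.4, 12.8 and 22.6 CPM in CTRL and 8.68, 10.4 and 11.7 CPM in CML 2wk, and was called lower at −0.52 (SE 0.18, edgeR adjusted p = 0.0211). Its exons overlap those of Trim17 on the same strand, and its call was lost without CTRL replicate 2 (edgeR adjusted p = 0.0513).

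Many H2A and H2B genes lie head to head and share the DNA between their starts. There were 12 such pairs with starts within 1000 bases, and both genes were tested in 9. The log2 fold changes had the same sign in 6 of the 9 pairs and differed by a median of 0.28. Of all 55 members tested, 37 had a positive and 18 a negative value, so many unpaired members share a sign too. No comparison with unpaired members was made. The widest difference, 1.49, was in the pair Hist2h2ac and Hist2h2be, the only one with a called gene. Hist2h2ac was at 53.4, 63.9 and 88.6 CPM in CTRL and 56.9, 101 and 165 CPM in CML 2wk and was called higher at 0.62 (SE 0.21, edgeR adjusted p = 0.0217), but not without CML 2wk replicate 6 (0.42, edgeR adjusted p = 0.0638). Per kilobase of coding sequence the H2B gene had the higher level in CTRL in 8 of the 9 pairs, and Hist2h2ac with Hist2h2be, at 171 and 39.5 CPM per kb, was the exception. Here the counts of the whole gene were divided by its coding length. The H2A genes tested shared a median of 62.4% of words with other genes and the H2B genes 36.75%, so levels of the 2 types are not strictly comparable.

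Calls were also set against the sequences shown above, beside 30.6% of all genes called higher and 29.0% lower. The 5 tested members with a TTTT, TCTC or TCTT loop (Hist2h2ac, Hist1h4i, Hist2h4, Hist1h4a and Hist1h3g) were all called higher, with log2 fold changes of 0.29 to 0.76. Of the 35 tested members with a TTTC or TTTA loop, 2 were called higher and 3 lower, with a median of 0.11. Without CML 2wk replicate 6, 2 of the 5 were called higher, Hist1h3g and Hist1h4a, against 29.4% of all genes. This grouping was made after the values were seen and has no test. Of the 11 tested H4 genes with GGTCCG, 2 were called higher and 1 lower. Of the 12 tested H2B genes with a promoter entry, 5 held the octamer and 7 did not, and 0 of the 12 were called. Hist2h2be, the H2B gene that was called, had no entry.

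Genes that act on the histone mRNAs are described next, from lists that hold known members of each step. Their counts of calls, and those of every list below, stand beside 59.5% of all genes called, 30.6% higher and 29.0% lower. No list was tested against these shares, and counts near them are not read as a difference from the genes at large. Of 12 regulators of histone gene transcription, 2 were called higher and 9 lower, with a median log2 fold change of −0.45. Cyclin E genes rose, Ccne2 from 46.0 to 62.9 CPM in CTRL to 74.4 to 150 CPM in CML 2wk (1.16, SE 0.13, edgeR adjusted p = 4.22e-06) and Ccne1 from 11.5 to 13.8 CPM to 18.9 to 27.2 CPM (0.89, SE 0.10, edgeR adjusted p = 3.25e-06). Their partner Cdk2 fell by 0.62 on the log2 scale (SE 0.07, edgeR adjusted p = 3.84e-06), without overlap.

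Npat, the histone locus coactivator, was at 98.7 to 112 CPM in CTRL and 85.7 to 105 CPM in CML 2wk and was not called (−0.10, SE 0.06, edgeR adjusted p = 0.174). Casp8ap2 (FLASH), its partner at the histone locus body, was called lower at −0.25, Hinfp, which binds H4 promoters, at −0.42, and E2f1 at −0.47. Pou2f1 (OCT1), which binds the octamer, was at 128 to 138 CPM in CTRL and 62.7 to 86.0 CPM in CML 2wk, and had the largest fall of the list at −0.84 (SE 0.07, edgeR adjusted p = 1.36e-07).

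Of 12 genes of histone pre-mRNA processing and translation, 0 were called higher and 4 lower by edgeR, with a median of −0.05. Slbp was at 112 to 133 CPM in CTRL and 95.8 to 121 CPM in CML 2wk, a small difference of −0.17 (SE 0.06, edgeR adjusted p = 0.0272). Lsm11, a subunit of the U7 snRNP that cleaves the pre-mRNA, was called lower at −0.43, while Lsm10, its partner, was at 0.26 and not called. The scaffold Sympk (symplekin) and Srrt (ARS2) fell by 0.73 and 0.72, without overlap. Cpsf3, the cleavage enzyme, and Zfp473 were at 0.03 and −0.11 and not called.

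The 16 decay genes divided, with 7 called higher and 7 lower. Calls varied with exonic length across all genes, as given above, and the part of length in the lists was not tested. All 7 genes Lsm1 to Lsm7, whose ring binds the degrading tail, were called higher, by 0.21 to 1.19 (Lsm5), a subset named after its values were seen. Upf1, the helicase recruited to the hairpin, was at 243 to 273 CPM in CTRL and 129 to 178 CPM in CML 2wk (−0.79, SE 0.08, edgeR adjusted p = 1.28e-06), and the uridylyl transferase Tut4 was called lower at −0.80. Eri1, the exonuclease that trims the hairpin, was at 147 to 171 and 164 to 179 CPM and not called (0.09, edgeR adjusted p = 0.156).

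Among 11 replacement histones, which are made throughout the cell cycle, 5 were called higher and 2 lower. H2afz (H2A.Z) was at 273 to 341 CPM in CTRL and 432 to 790 CPM in CML 2wk (0.92, SE 0.12, edgeR adjusted p = 1.65e-05). H3f3a and H3f3b, which encode H3.3, were called higher at 0.56 and 0.22, H2afj at 0.58 and H2afy2 at 0.44. The linker histone gene H1fx fell from 35.5 to 51.0 CPM to 7.57 to 24.8 CPM (−1.77, SE 0.24, edgeR adjusted p = 2.05e-05), and H2afy (macroH2A1) was called lower at −0.52. H1f0, a linker histone of resting and differentiated cells, was at −0.22, and H2afx, H2afv and Cenpa at −0.21, −0.23 and 0.10, none of them called.

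Of 23 chaperone and assembly genes, 7 were called higher and 12 lower (median −0.26). Nasp, which stores soluble H3 and H4, was called higher at 0.37 and Npm1 at 1.17. Chaf1a and Chaf1b, subunits of the replication-coupled factor CAF-1, were called lower at −0.54 and −0.26, as were Tonsl at −0.96 and Ubn1 at −0.89. Asf1b and Hira were at −0.14 and −0.09 and not called.

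The S-phase genes showed no common direction, with 12 of 41 called higher and 16 lower and a median of −0.01. Pcna was called higher at 0.48, Rrm2 at 0.78 and Gmnn at 1.03, and Mcm2 lower at −0.46. The summed level of this list was 6310 to 7581 CPM in CTRL and 6103 to 7509 CPM in CML 2wk, and CML 2wk replicate 6, so high in histone mRNA, was within both ranges at 7313 CPM. Of 20 G2/M genes 12 were called lower and 3 higher (median −0.48). Mki67, a marker of cycling cells, was at 1433 to 1763 CPM in CTRL and 482 to 717 CPM in CML 2wk (−1.38, SE 0.09, edgeR adjusted p = 4.27e-08), Kif23 and Cenpf were lower at −0.92 each, and Cdk1 was higher at 0.39.

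Because histone mRNAs lack a poly(A) tail, their capture depends on the library type, which the labels name only as a Kapa RNA HyperPrep kit. RNAs without a poly(A) tail were therefore examined in the same libraries. Of the 13 listed that had an identifier, 5 were at 0 in all libraries and 6 could be tested, and 5 of the 6 were called higher in CML 2wk, among them Rpph1 (1.40, with 1.32 to 4.04 CPM in CTRL and 4.54 to 13.2 CPM in CML 2wk), Rnu12 (1.47) and Scarna6 (1.02). Scarna2, at 180 to 308 CPM in CTRL a gene of this list named after its values were seen, was not called (−0.25, edgeR adjusted p = 0.228). It held most of the summed level of the list, which was 190 to 322 CPM in CTRL and 177 to 297 CPM in CML 2wk. This sum therefore follows Scarna2 and cannot show whether the list as a whole rose. Of 12 tested mitochondrial and nuclear RNAs 6 were called higher, led by mt-Co1 at 1.65, mt-Nd1 at 1.52 and mt-Nd4 at 1.37, while the nuclear RNA Malat1 was at −0.13 and not called. Mitochondrial genes took 0.816% to 1.29% of counts in CTRL and 2.26% to 2.97% in CML 2wk. In this measure CML 2wk replicate 6 was at 2.61%, inside its group, as it was in the S-phase sum above. It was the highest CML 2wk library in the sum of RNAs without a poly(A) tail, at 297 CPM, within the CTRL range. It was the highest of all 12 libraries in the sums of chaperone genes (7837 CPM), replacement histones (3765 CPM) and neutrophil genes (8526 CPM). The part of library capture in the histone values was not tested.

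**Figure D5:**
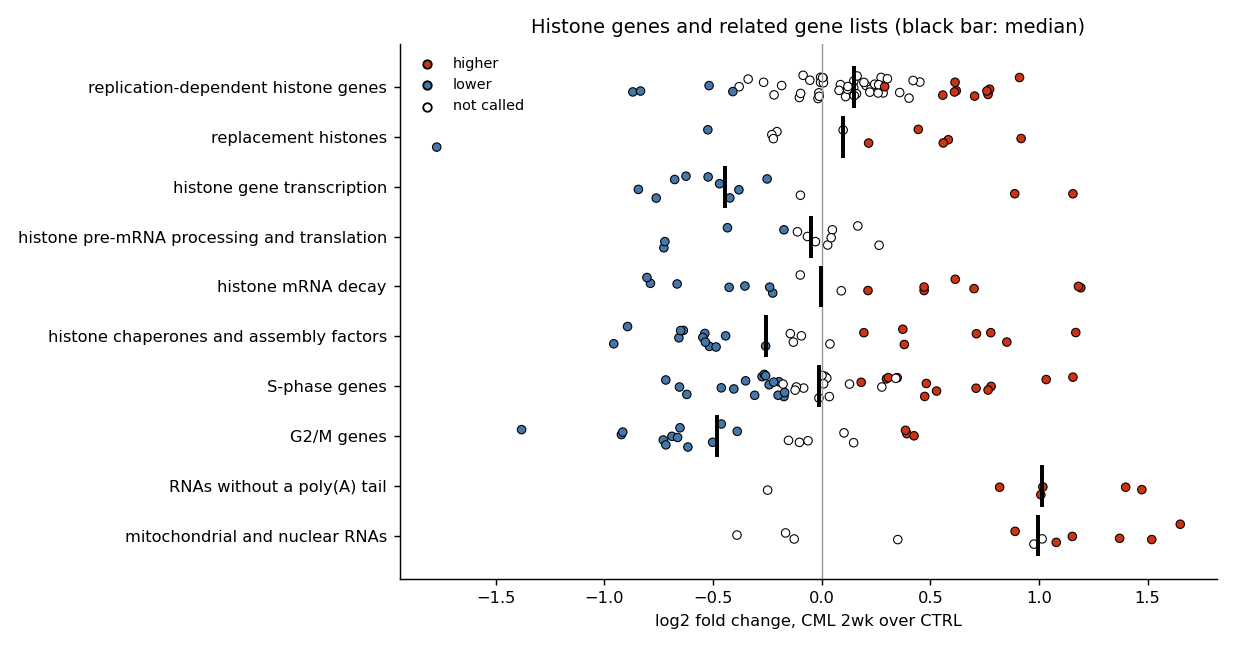
Each point is the log2 fold change of CML 2wk over CTRL (x axis) of 1 gene tested, in rows for the histone genes and 9 related lists (y axis), with red points called higher, blue points lower, open points not called and a black bar at the median. The median is 0.15 for the histone genes, −0.45 for regulators of their transcription, −0.48 for G2/M genes and 1.01 for RNAs without a poly(A) tail. The summed level of the last list, most of it from Scarna2, overlapped between the groups.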

How the data were processed

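The deposited files hold raw counts per Ensembl mouse gene and library, without normalization by the authors. The submitters' processing notes name FastQC 0.11.9, fastp 0.23.2, STAR 2.7.10a, featureCounts 2.0.1 and mm39, whereas the methods of the study name Trim Galore!, HISAT2 and hg38. The strand setting, how multi-mapped reads were handled and the removal of rRNA are not given in the sources used here. Symbols and transcripts were taken from GENCODE M21, with 52073 of 56748 identifiers matched, and promoters from RefSeq (GRCm38.p6).

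Groups were taken from the sample labels. Nothing in the counts showed a library deposited again (lowest chi-square per degree of freedom 4.018). CML 2wk was compared with CTRL (n = 6 each) by edgeR 4.0.16 in R 4.3.3, with TMM factors, filterByExpr (18438 genes), the quasi-likelihood test and Benjamini-Hochberg adjustment over all genes tested, with a threshold of 0.05. Alternatives were upper-quartile factors, no filter, DESeq2 1.42.0, a replicate block and leaving out libraries. Leaving out CML 2wk replicates 2 and 4 together and scaling to the histone counts were chosen after seeing the data. Tables, sequence searches and plots used Python 3.11.15, numpy 2.4.6, pandas 2.3.3 and matplotlib 3.10.9. The edgeR test was tried on simulated data with known changes and the same dispersion for every gene. Of 100 genes changed by a log2 fold of 1, 98 were called in the right direction, and of 100 changed by 0.5, 36 were. A gene not called can therefore still differ by a change of that smaller size. Real genes vary in dispersion. Only these sets of 100 genes were changed among 19072 fitted, whereas 59.5% of all genes were called in the data. Recovery for single histone genes can therefore differ.

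Members and lists were chosen with earlier results of these data known. Every member could be named. Given by library were the 2 genes of each histone type with the highest mean CPM and the 3 genes called each way with the largest change, and of the lists the main known factors and the 3 genes called with the largest change. Depth is given as total counts, and limits from counts cover counting error only, since PCR copies are not independent molecules. Replicates are recipients of 1 pool of donor cells, so p-values measure the spread between recipients.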

Additional observations from a re-analysis of the deposited data

Results flagged for a closer look

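In 4 of 62 groups of 6 values examined, 1 library lay far from the other 5 by Dixon's ratio of gap to range, where about 3.1 would be so by chance at 1 in 20. All 4 were CML 2wk replicate 6. Its summed H1 level was 6388 CPM, with the next library of its group at 4205. Hist1h1c was at 1340 CPM with the next at 849, Hist1h2bn at 676 with the next at 403, and Hist1h3e at 623 with the next at 369. The 4 values come from 1 library and share its histone level, so they are not 4 separate observations.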

How the results depend on the processing

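With all libraries 10 histone genes were called higher and 4 lower, against 30.6% and 29.0% of all genes. The replicate numbers did not pair the samples (same-number correlations −0.125 to 0.068, with 1 of 6 numbers correlating best with its own). A replicate block gave 6 higher and 3 lower, with 3 RNAs without a poly(A) tail higher in place of 5. Over all genes the block gave 4786 higher and 5189 lower, against 5637 and 5339 as designed. Without replicate 6 of both groups, 6 histone genes were higher and 12 lower, 4 replacement histones were lower and 3 RNAs without a poly(A) tail higher. Without CML 2wk replicates 2 and 4 the histone counts were 22 and 2, against 32.0% of all genes each way. In that setting 2 processing genes were higher, 3 RNAs without a poly(A) tail were higher (median 0.66) and 1 mitochondrial or nuclear RNA was lower. Scaling to the summed histone counts gave 5 and 7, against 12.9% and 20.2% of all genes. Upper-quartile factors gave 2 histone genes lower, 2 processing genes higher and 9 S-phase genes lower, with medians of −0.37 for transcription, 0.027 for processing and −0.18 for chaperones. Without a filter the medians were −0.52 for transcription and −0.33 for chaperones, 4 replacement histones were lower, and 1 mitochondrial or nuclear RNA was lower, as with DESeq2. With 1 library left out at a time, histone genes called higher ranged from 6 to 14 and lower from 1 to 9, replacement histones lower from 2 to 4, processing genes higher from 0 to 1 and mitochondrial or nuclear RNAs lower from 0 to 1. For settings with no share over all genes here or above, the counts cannot be set against the genes at large. The cause was not tested. Hist1h1a, Hist1h1b, Hist1h1d, Hist1h3g, Hist1h4a, Hist4h4 and Hist2h2be kept their call under the 20 alternatives other than scaling to the summed histone counts, which ended the call of Hist4h4 and kept the other 6. Over the 109 named genes and 21 alternatives 92 calls were lost, 55 gained and 0 reversed of 2235 values. Genes at low counts and genes with near-identical copies are limited by depth and by read placement.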
